A study of Rattus norvegicus with 3 samples.

Results

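The 10 genes followed here belong to plasma membrane repair, to the annexins and to caveolae, and were read through nuclei of the rat heart. They were Dysf, Myof, Trim72, Anxa1, Anxa2, Anxa5, Anxa6, Cav1, Cav3 and Cavin1. They were chosen by name, with earlier results of these data known, and all 10 were found among the 22250 genes listed in the deposited count files. RNA was measured in single nuclei from the heart apex, which held part of the septum and of both ventricles, of Sprague Dawley rats at 12 months of age. There was 1 library for each of 3 genotypes: wild-type (WT), BMD, a model of Becker muscular dystrophy with an in-frame exon deletion in the dystrophin gene Dmd (the R-BMDdel45-47 line), and DMD, a model of Duchenne muscular dystrophy with another exon deletion in Dmd (the R-DMDdel52 line). The deletions are in the germ line and so are present in every cell type. No treatment is named in the labels for any group. The number and sex of the rats behind each library are not given in the sources used here.

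When a membrane tears, calcium entering the cell brings repair proteins to the wound. Dysferlin (Dysf) and its relative myoferlin (Myof) bind calcium and lipids and take part in vesicle fusion, Trim72 (MG53) gathers vesicles at the injury, and the annexins bind phosphatidylserine-rich membranes in a calcium-dependent way and form a cap over the wound. Caveolae are small pits of the plasma membrane whose coat needs a caveolin (Cav1 in most cells, Cav3 in striated muscle) together with Cavin1, and they flatten when the membrane is stretched. Loss of dystrophin leaves the muscle membrane fragile, which is why these genes are of interest in dystrophic hearts.

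The 3 libraries held 24664 nuclei, with median depths per nucleus of 1212 (WT), 1486 (BMD) and 1229 (DMD) UMIs (unique molecular identifiers, each standing for 1 captured RNA molecule). Nuclei were clustered without the 10 genes, and 9 classes were named from other markers. Pairs of libraries shared between 12 and 20 nuclei barcodes. Cardiomyocyte-like nuclei, the main class here, numbered 2071 for WT, 1604 for BMD and 1112 for DMD, with 6415140, 6774426 and 3933875 UMIs, and all 10 of their listed markers found in the files were raised in the larger of their 2 clusters. Each level below is the gene's UMIs summed over a class and library, per 1000000 UMIs of that sum (CPM), and brackets hold exact 95% Poisson intervals. A ratio is a log2 ratio of CPM with an exact conditional binomial 95% interval. All intervals cover counting error only: with 1 library per genotype there is no replicate check, no test between genotypes was possible, and a difference describes these libraries. Dmd itself had 16373 (WT), 20338 (BMD) and 19216 (DMD) CPM in cardiomyocyte-like nuclei, which does not check the labels, since these counts do not separate reads on either side of the deleted exons. As in any tissue, fewer cells of a type and less RNA per cell cannot be told apart in the sums over all nuclei.

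The 10 genes divided the heart between them. Most UMIs of Cav3 and Trim72, both known as muscle genes, lay in cardiomyocyte-like nuclei: 80.4% (WT), 83.9% (BMD) and 82.2% (DMD) of the Cav3 UMIs, and 81.5%, 84.9% and 73.9% of the Trim72 UMIs. Cav1 was the endothelial counterpart, with 68.2%, 72.2% and 66.2% of its UMIs in endothelial-like nuclei of WT, BMD and DMD. Dysf was shared between both classes, with 58.2% (WT), 60.7% (BMD) and 39.9% (DMD) of its UMIs in cardiomyocyte-like nuclei, and 21.6%, 22.2% and 32.5% in endothelial-like nuclei. Anxa1 lay mainly in fibroblast-like nuclei, which held 69.3% (WT), 59.6% (BMD) and 53.2% (DMD) of its UMIs. The remaining genes, Myof, Anxa2, Anxa5, Anxa6 and Cavin1, had no class with over 50% of their UMIs in any library. These shares also follow the size and depth of a class, and differences between libraries in them are not differences in level. Cardiomyocyte-like nuclei made up 20.8%, 23.6% and 14.1% of the nuclei of WT, BMD and DMD. Fibroblast-like nuclei made up 35.3%, 24.2% and 28.5%, and endothelial-like nuclei 15.4%, 22.1% and 24.0%.

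**Figure D1:**
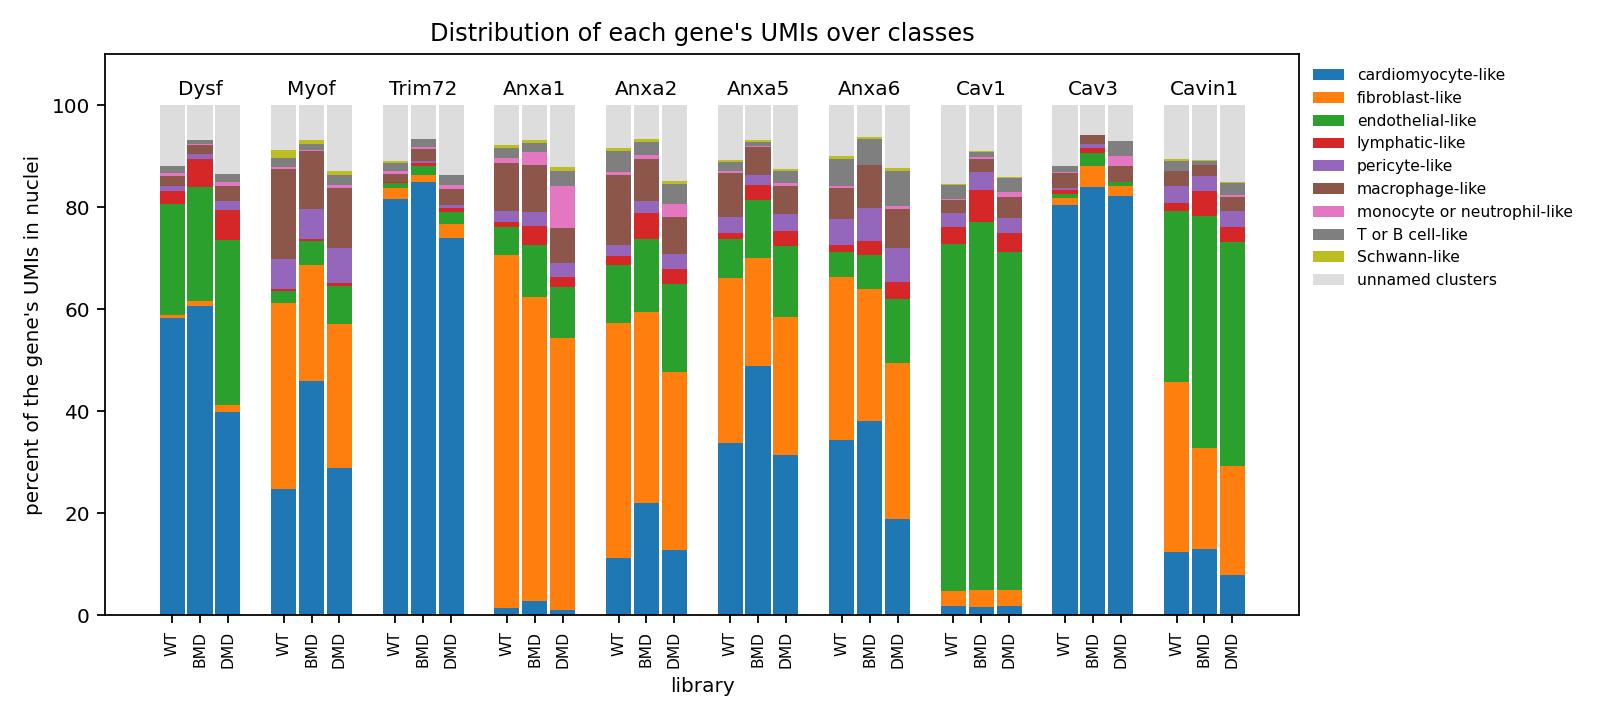
Stacked bars show the percent of each gene's UMIs in nuclei (vertical axis) that lay in each named class, for the 3 libraries (horizontal axis); light grey marks clusters left unnamed. Cav3 and Trim72 were mostly in cardiomyocyte-like nuclei and Cav1 mostly in endothelial-like nuclei in all 3 libraries.

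Short stretches before the starts of Trim72 and Cav3 are shown because these were the genes with over 50% of their UMIs in cardiomyocyte-like nuclei of all 3 libraries. They come from RefSeq promoter entries of the GRCr8 build, a different build from that of the counts, and 9 of the 10 genes matched an entry by symbol (Cav1 matched more than 1). The Trim72 stretch lies on the + strand at chr1:192044060-192044089 and the Cav3 stretch on the + strand at chr4:147137824-147137853, and capitals mark the matched letters.
Trim72: gataggacagCTAAATATAGttcttgggcc
Cav3: ggaggctggcagGGAATGccaggtctcctc
The Trim72 match is to CTANNNNTAG, the frame of sites for MEF2, a muscle transcription factor. It covers bases 150 to 141 before the start, and this frame was found in the 250 bases before 3.41% of 33469 promoters. The Cav3 match is to CATTCC on the opposite strand, the M-CAT element, covering bases 157 to 152 before the start, and this element was found before 12.1% of promoters. Among the 9 genes, CTANNNNTAG was found only for Trim72, and CATTCC for Anxa1, Anxa2 and Cav3. The E-box CANNTG occurred 3 times for Trim72 and 1 time for Cav3, and before 65.5% of all promoters. Both strands were searched for 7 motifs, some of which can overlap; the others were the AP-1 site TGANTCA (before 6.34% of promoters), the GC box GGGCGG (30.5%), the GATA site AGATAA (10.3%) and the frame of the CArG box, CCNNNNNNGG (65.1%). The stretches were chosen after these matches were seen, and a match describes letters only.

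Dysf was highest in vessel-lining nuclei and not in cardiomyocyte-like nuclei. In WT it stood at 965.1 CPM in endothelial-like and 858 CPM in lymphatic-like nuclei, whose intervals overlapped, and at 546 CPM [528, 565] in cardiomyocyte-like nuclei, separate from both. The same order of lymphatic-like and endothelial-like above cardiomyocyte-like nuclei held in BMD, at 885, 753 and 551 CPM, and in DMD, at 773, 720.3 and 446 CPM. Fibroblast-like nuclei had the lowest Dysf level of the 9 classes in WT, 9.29 CPM. This was 4.40% of its level in free RNA, the RNA outside nuclei read from barcodes with at most 50 UMIs.

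Myof showed nearly the opposite pattern. Among the 9 classes its highest level was in Schwann-like nuclei, at 982 CPM for WT, 838 for BMD and 710.3 for DMD. That class held only 66, 34 and 31 nuclei. Macrophage-like nuclei followed at 720.4, 549 and 539.6 CPM. Within the macrophage-like class, a cluster led by Spp1, read apart below, stood at 1313, 1295 and 1156 CPM. In DMD the intervals of Schwann-like and macrophage-like nuclei overlapped, and in BMD and DMD those of macrophage-like and pericyte-like nuclei did (547 and 505 CPM in the latter). Endothelial-like nuclei, rich in Dysf, had 88.4 CPM of Myof in WT.

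Among the annexins, Anxa1 reached its highest levels in monocyte or neutrophil-like nuclei of BMD (877 CPM, 31 UMIs) and DMD (1198 CPM, 166 UMIs), a class of 32, 32 and 96 nuclei. In DMD, 1 nucleus alone held 54 of the 166 UMIs. Nuclei with any Anxa1 UMI made up 43.8% (WT), 59.4% (BMD) and 53.1% (DMD) of the class, so DMD was not above BMD by this share. In WT the same class had 308 CPM from 20 UMIs, overlapping fibroblast-like nuclei at 324 CPM. Markers of distant classes stood at 103% (WT), 42.9% (BMD) and 59.4% (DMD) of their free RNA level in the monocyte or neutrophil-like nuclei. Scrublet marked 21.9%, 0% and 32.3% of the class as doublets in WT, BMD and DMD. Cardiomyocyte-like nuclei had 4.83 CPM of Anxa1 for WT, 5.17 for BMD and 5.59 for DMD, between 1.87% and 4.25% of the free RNA level. Anxa5 was the most even, between 92.4 and 219 CPM over the 9 classes of WT. Anxa6 was highest in T or B cell-like nuclei in all 3 libraries, at 333 (WT), 401 (BMD) and 288 (DMD) CPM, and each of these overlapped the next class.

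Cav1 and Cavin1, the coat partners, had their highest levels in endothelial-like nuclei of all 3 libraries, and no other class overlapped them there. Cav1 stood at 900.5 CPM in WT endothelial-like nuclei against 318 CPM in lymphatic-like nuclei, the next class. Cavin1 stood at 421 CPM against 140.4 CPM. Unlike Cav1, Cavin1 also had a fibroblast-like level of 116 CPM in WT. Cav3 had 0 UMIs in Schwann-like nuclei of each library. The floor of 3 counts used in ratios stands at 36.4 CPM for WT, 58.5 for BMD and 59.2 for DMD there. Low levels could thus have been missed.

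**Figure D2:**
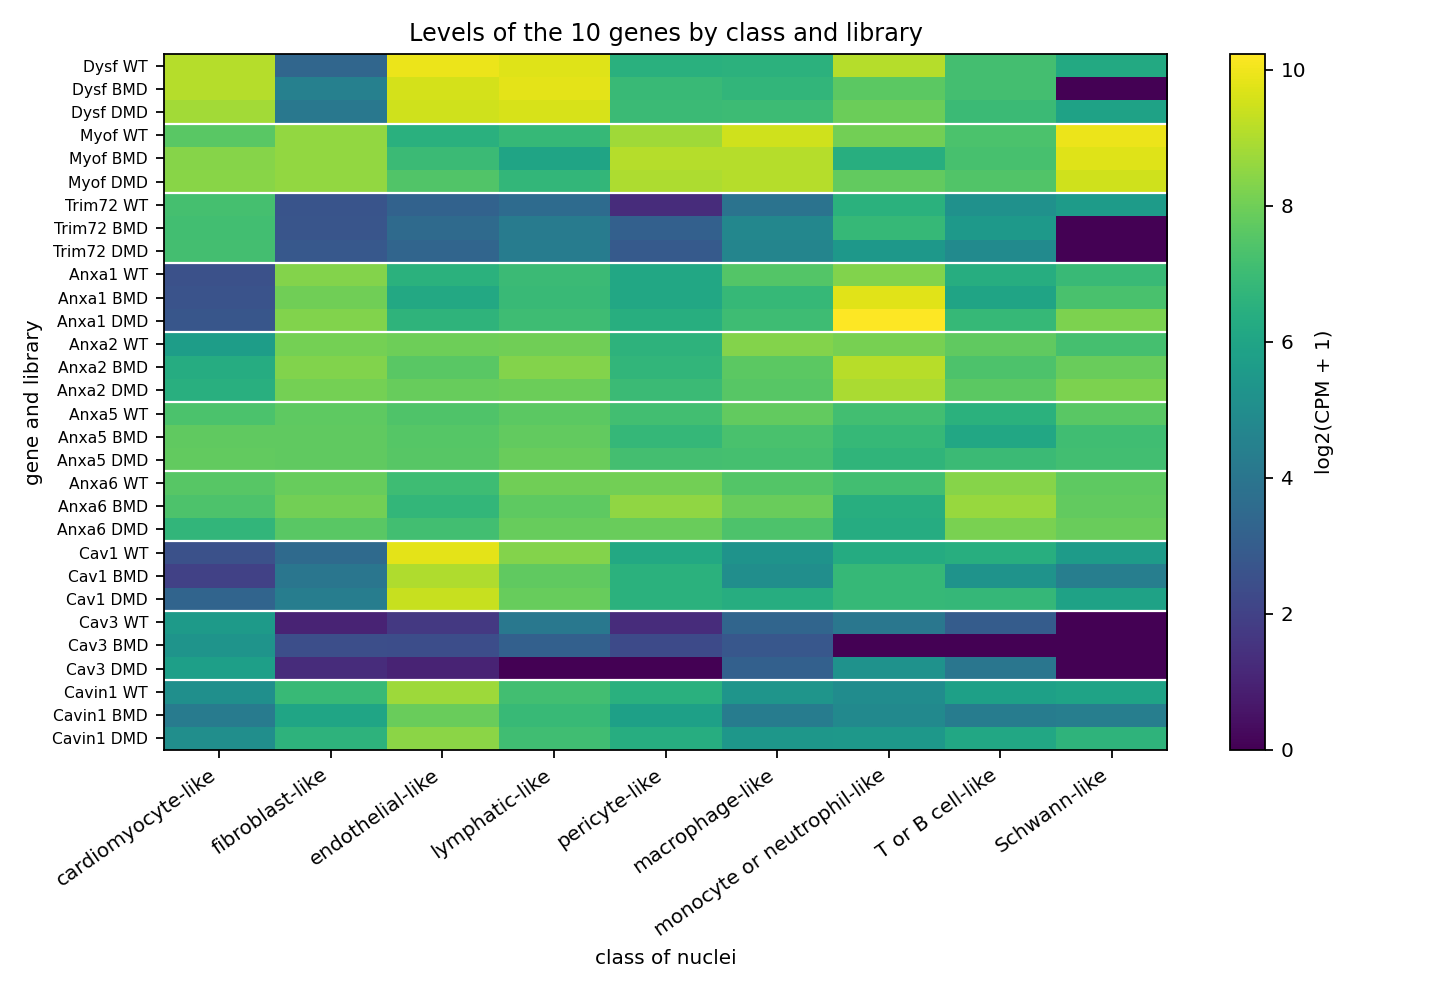
Colour gives log2(CPM + 1) of each gene in each library (rows) and class of nuclei (columns); levels are to be compared within a gene's 3 rows. Cav1 peaked in endothelial-like nuclei and Cav3 and Trim72 in cardiomyocyte-like nuclei, while Anxa5 was the most even over the classes of WT.

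For each gene, the genes with the most similar levels over 22 combinations of class and library were sought among 9331 genes; these points share libraries and classes, so the correlations of log2(CPM + 5) are descriptive. Trim72 was most like Alpk3 and Mybpc3, a kinase-like and a myosin-binding protein of the sarcomere (both r = 0.978). Mybpc3 was itself a marker used to name the cardiomyocyte-like class. Cav1 was most like Ptprb (r = 0.982), a phosphatase of endothelium that was itself a marker used to name the class, Adgrf5 and Aqp1. Dysf was most like Rasgrp3 (r = 0.958), Pgm5 and Clu. For the rest of the 10 genes the closest match, not named here, had r between 0.821 (Anxa5) and 0.940 (Cavin1). Within the 10 genes, Cav3 and Trim72 had r = 0.784, Cav1 and Cavin1 r = 0.768, and Anxa1 and Anxa2 r = 0.887, while Dysf and Myof had r = -0.665.

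In cardiomyocyte-like nuclei taken as 1 class, Myof, Anxa2 and Anxa5 stood higher in both dystrophic libraries, while Dysf, Trim72 and Cav3 lay within 1.5-fold of WT in both. Anxa6 was lower, mainly in DMD, and Cavin1 was lower in BMD but not in DMD. Both comparisons use the same WT library and are given side by side. Of the 10 genes, 8 had at least 100 UMIs over the 3 libraries in this class (Anxa1 and Cav1 did not). Of these 8, 2 were at least 1.5-fold higher in BMD than in WT (Anxa2 and Myof), against 7.31% of the 9000 genes with as many UMIs, and 1 was at least 1.5-fold lower (Cavin1), against 8.43% of all. In DMD, 2 were higher (again Anxa2 and Myof), against 8.80% of all genes, and 1 was lower (Anxa6), against 9.80%. The median log2 ratio of the 8 genes was -0.03 in BMD, where the median of all genes was -0.06, and 0.10 in DMD, where that of all genes was -0.05. The list as a whole therefore sat near 0, with 4 genes above and 4 below in each comparison.

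The cardiomyocyte-like nuclei of WT and of the dystrophic libraries lay mostly in different clusters. At a finer clustering (Leiden resolution 1.0), again without the 10 genes, a cluster led by Dhrs7c, Ky and Grid1 held 76.3% (WT), 12.3% (BMD) and 19.2% (DMD) of the class, and one led by Xirp2, Hs3st2 and Gbp1 held 20.7%, 80.4% and 73.9%. Within the Xirp2-led cluster Myof was at 329, 347 and 352 CPM in WT, BMD and DMD, and its log2 ratios of 0.08 [-0.06, 0.21] and 0.10 [-0.05, 0.25] had intervals that held 0. Within the Dhrs7c-led cluster Myof was at 148, 218 and 335 CPM, with log2 ratios of 0.56 [0.26, 0.86] and 1.18 [0.92, 1.44]. The higher Myof level of the class was thus found again in the cluster that held most WT nuclei, and was not detectable in the cluster that held most BMD and DMD nuclei, where WT was already high. Only the DMD ratio in the Dhrs7c-led cluster passed 1.5-fold, and the BMD ratio fell short of it in both clusters.

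Anxa2 behaved alike in the Xirp2-led cluster, at 76.5, 79.3 and 85.4 CPM, with log2 ratios of 0.05 [-0.23, 0.35] and 0.16 [-0.15, 0.47]. In the Dhrs7c-led cluster it was higher in DMD (0.996 [0.44, 1.52], 36 UMIs) but not in BMD (-0.12 [-0.91, 0.58], 18 UMIs). Anxa5 had log2 ratios between 0.25 and 0.31 in both clusters and both comparisons, with intervals above 0 in the Xirp2-led cluster only. Anxa6 was lower in DMD by the same log2 ratio in both clusters, -0.96 [-1.44, -0.52] in the Dhrs7c-led and -0.96 [-1.18, -0.74] in the Xirp2-led one. Cavin1 in the Xirp2-led cluster was at 44.9, 16.2 and 25.8 CPM, so that DMD also lay below WT there (-0.80 [-1.27, -0.33]), while in the Dhrs7c-led cluster its intervals held 0. Dysf in the Xirp2-led cluster was at 686, 573 and 457 CPM, with log2 ratios of -0.26 [-0.36, -0.16] and -0.59 [-0.70, -0.47]. The DMD ratio of Dysf was thus just past 1.5-fold in that cluster, unlike in the whole class. These clusters were read apart after the data had been seen.

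Myof was measured at 193 CPM [182, 204] for WT, 334 CPM [320, 348] for BMD and 342 CPM [324, 361] for DMD. The BMD and DMD intervals overlapped each other and lay above that of WT. The share of mitochondrial UMIs in these sums moved the same way, at 0.591% (WT), 1.14% (BMD) and 1.27% (DMD), and its part in the Myof, Anxa2 and Anxa5 values was not tested. The log2 ratio was 0.79 [0.69, 0.89] for BMD and 0.83 [0.71, 0.94] for DMD, or 1.73-fold and 1.77-fold. Once every nucleus was thinned to 500 UMIs, 7.63% of cardiomyocyte-like nuclei for WT, 15.4% for BMD and 13.5% for DMD had a Myof UMI (30.8%, 53.4% and 51.3% before thinning, at median depths of 2746, 3670 and 3180 UMIs). The lowest thinned share in the 4 largest classes was 3.39%, in endothelial-like nuclei of WT.

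Anxa2, which forms a membrane-bridging complex with S100a10, was measured at 50.7 [45.3, 56.5] CPM in WT, against 79.3 [72.7, 86.3] CPM (BMD) and 86.2 [77.2, 95.8] CPM (DMD). Its log2 ratio was 0.65 [0.44, 0.85] for BMD and 0.77 [0.54, 0.99] for DMD. Anxa5, the annexin known for binding exposed phosphatidylserine, was at 159.6 CPM [150.0, 169.7] for WT, 209 CPM [198, 220.2] for BMD and 216 CPM [202, 231] for DMD. For both genes the dystrophic libraries overlapped each other and lay above WT, but the Anxa5 log2 ratios of 0.39 [0.27, 0.51] and 0.44 [0.30, 0.57] did not reach 1.5-fold. In the sums over all nuclei the higher Anxa2 level was not seen in BMD, where the log2 ratio was -0.04 [-0.11, 0.04].

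Anxa6, a large annexin found at the sarcolemma, was measured at 188 CPM [178, 199] for WT, 165 CPM [155, 175] for BMD and 105 CPM [94.9, 115] for DMD. None of the 3 intervals overlapped, and the order was WT above BMD above DMD. The log2 ratio was -0.19 [-0.31, -0.07] for BMD and -0.85 [-1.01, -0.68] for DMD, and DMD stood below BMD by a log2 ratio of -0.66 [-0.82, -0.49]. Over WT, the Anxa6 ratio of DMD was -0.25 [-0.39, -0.11] in fibroblast-like and 0.09 [-0.19, 0.37] in endothelial-like nuclei. Over BMD, the DMD log2 ratio was -0.66 [-0.98, -0.34] in pericyte-like, -0.53 [-0.82, -0.24] in macrophage-like and -0.48 [-0.81, -0.14] in T or B cell-like nuclei. It was -0.41 [-0.56, -0.26] in fibroblast-like and 0.34 [0.07, 0.61] in endothelial-like nuclei. Unlike in cardiomyocyte-like nuclei, BMD stood above WT in pericyte-like nuclei (262, 371 and 235 CPM in WT, BMD and DMD). BMD was also highest in macrophage-like (180.1, 237.2 and 164.5 CPM), T or B cell-like (333, 401 and 288 CPM) and fibroblast-like nuclei (233, 261 and 196 CPM).

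**Figure D3:**
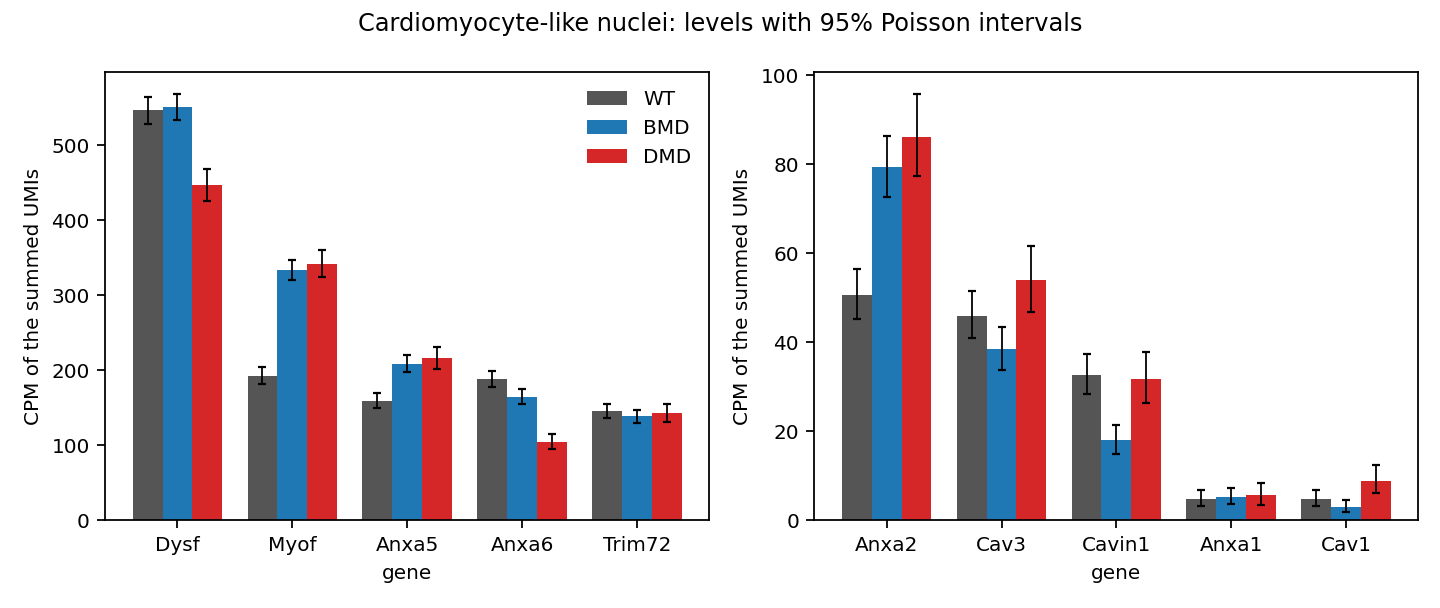
Bars give the CPM (vertical axis, from 0, with separate scales in the 2 panels) of the 10 genes in cardiomyocyte-like nuclei of the WT, BMD and DMD libraries, with 95% Poisson intervals as error bars. Myof, Anxa2 and Anxa5 were higher in both dystrophic libraries, Anxa6 was lowest in DMD and Cavin1 was lowest in BMD; the clusters within the class are not shown apart.

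Dysf was measured at 546 CPM [528, 565] for WT, 551 CPM [533, 569] for BMD and 446 CPM [426, 468] for DMD. WT and BMD overlapped, and DMD lay below both, with a log2 ratio over WT of -0.29 [-0.38, -0.21]. Trim72 was at 146 CPM [136, 155] for WT, 138 CPM [130, 148] for BMD and 143 CPM [131, 155] for DMD. All 3 Trim72 intervals overlapped, and the log2 ratios of -0.07 [-0.21, 0.06] and -0.03 [-0.18, 0.13] bound any difference in these sums to well within 1.5-fold, for counting error alone. The muscle caveolin Cav3 was at 46.0 [40.9, 51.5] CPM in WT, against 38.4 [33.9, 43.3] CPM (BMD) and 53.9 [46.9, 61.6] CPM (DMD). WT overlapped both, while DMD lay above BMD by a log2 ratio of 0.49 [0.22, 0.76]. Thinned to 500 UMIs, 2.32%, 2.06% and 2.25% of cardiomyocyte-like nuclei in WT, BMD and DMD had a Cav3 UMI, against 0.0852%, 0.243% and 0% of fibroblast-like nuclei (0 of 2251 nuclei in DMD).

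Cavin1 was measured at 32.7 [28.5, 37.5] CPM in WT, against 18.0 [14.96, 21.5] CPM (BMD) and 31.8 [26.4, 37.9] CPM (DMD). WT and DMD overlapped and BMD lay below both, with a log2 ratio over WT of -0.86 [-1.20, -0.53]. Summed markers of other cell types also differed between the libraries, and some of these lists hold genes raised in cardiomyocyte-like nuclei. The summed level of 9 endothelial markers was 117, 177 and 202 CPM in WT, BMD and DMD, that of 10 macrophage markers 14.0, 22.1 and 28.0 CPM and that of 6 endocardial markers 189, 222 and 349 CPM, rising like Myof and Anxa2. Those of 9 fibroblast markers (133, 110.3 and 251 CPM) and 6 monocyte or neutrophil markers (20.1, 19.5 and 70.2 CPM) were highest in DMD only. The sums of 7 smooth muscle markers (1997, 1788 and 1401 CPM), 6 lymphatic markers (246, 215 and 171 CPM) and 8 pericyte markers (983, 984 and 654 CPM) were lowest in DMD, as Anxa6 was. Myocd, of the smooth muscle list, was among the 10 leading genes of the larger cardiomyocyte-like cluster. That cluster also raised 1 lymphatic and 1 endocardial marker. In WT fibroblast-like and endothelial-like nuclei the smooth muscle sum was 194 and 207 CPM, and the pericyte sum 469 and 119 CPM. These sums thus do not measure RNA of other cell types alone. At 0 UMIs in cardiomyocyte-like nuclei were 1 smooth muscle marker in DMD and 1 monocyte or neutrophil marker in each library. The part of all these in the results was not tested. Subtracting each library's free RNA kept the same genes past 1.5-fold: Anxa2, Myof and Cavin1 in BMD, and Anxa2, Myof and Anxa6 in DMD.

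A small further cluster of the class was led by Gadd45g, Pgam2 and Nppb (58, 113 and 69 nuclei of WT, BMD and DMD). Without it Myof was at 195, 337 and 349.7 CPM and Anxa6 at 190.3, 166 and 104 CPM, close to the values of the whole class. Within it Myof was at 117 CPM in WT, from 19 UMIs, against 288 CPM (BMD) and 178 CPM (DMD), with WT lowest and overlapping DMD. Anxa6 was at 111, 147 and 122 CPM there, from 18, 70 and 22 UMIs. These 3 intervals overlapped, so the order of Anxa6 seen in the rest of the class was not found in this cluster.

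The wider repair and caveola machinery was read from a list of 59 further genes, of which 55 were in the files and 36 reached 100 UMIs in the cardiomyocyte-like class. In BMD 3 of the 36 were at least 1.5-fold higher and 3 lower than in WT, and in DMD 7 were higher and 4 lower. The shares of all genes past 1.5-fold were the same as given for the 10 genes, 7.31% higher and 8.43% lower in BMD and 8.80% and 9.80% in DMD, so that the BMD counts were near this background. The counts by gene group that follow are of few genes and stand against the same shares. The list had median log2 ratios of -0.06 and -0.09. Of the 36, 3 genes passed 1.5-fold in the same direction in both comparisons, which share the WT library. The share of all genes that did so was not counted, so this number has no background beside it. Syt7, a calcium sensor of lysosome exocytosis, was at 97.0 CPM for WT, 40.3 for BMD and 36.4 for DMD. Its log2 ratios of -1.27 [-1.48, -1.06] and -1.42 [-1.69, -1.15] were further from 0 than those of any of the 8 genes above. S100a10, the partner of Anxa2, was at 5.77, 11.4 and 11.4 CPM from 37, 77 and 45 UMIs, with log2 ratios of 0.98 [0.40, 1.59] and 0.99 [0.33, 1.66]. Ctsl, a lysosomal protease, was at 19.3, 39.0 and 29.2 CPM, with log2 ratios of 1.01 [0.70, 1.33] and 0.60 [0.22, 0.98]. In cardiomyocyte-like nuclei markers of distant classes stood at 3.43% (WT), 6.27% (BMD) and 5.50% (DMD) of their free RNA level. The levels of these 3 genes were not set against free RNA, whose part in them was not tested. Genes of this list were read in the class as a whole, not in its clusters apart.

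By group, none of the 6 proteins of the ESCRT and ALG-2 repair group that were tested passed 1.5-fold in either comparison. Of the 5 other annexins tested, none passed in BMD, while in DMD Anxa9 was higher and Anxa11 lower. Of 4 S100 partners of annexins, besides S100a10 above, S100a1 was lower in BMD and S100a6 was higher in DMD. Of 3 genes of the calpain and scaffold group, none passed in BMD and Capn1 was lower in DMD. Of 7 further caveolins, cavins and caveola neck proteins, Cavin4, a muscle cavin, was higher in BMD (29.5 CPM for WT, 57.9 for BMD and 38.6 for DMD), and Cavin2 and Cavin3 were higher in DMD. Cavin4 and Cavin1 thus lay on opposite sides of WT in BMD. Of 3 scramblase, receptor and caveolin partners, Adcy6 was lower in BMD, and in DMD Ano6 was higher and Ano5 lower, Ano5 being at 199 (WT), 144 (BMD) and 87.7 (DMD) CPM. No other ferlin had 100 UMIs. Genes of this paragraph were named after their values were seen, and were read only in the class as a whole.

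In endothelial-like nuclei Cav1 and Cavin1 were lower in both dystrophic libraries. Cav1 was measured at 900.5 CPM for WT, 521 for BMD and 664 for DMD, with log2 ratios of -0.79 [-0.92, -0.67] and -0.44 [-0.55, -0.33]. Cavin1 was at 421, 235 and 349.8 CPM, with log2 ratios of -0.84 [-1.03, -0.66] and -0.27 [-0.43, -0.11]. For both genes BMD was lowest, DMD lay between and WT was highest. The class held 2 clusters, led by Btnl9 and by Unc5c, and the same order was found in each, with BMD log2 ratios of -0.75 [-0.92, -0.58] and -0.86 [-1.05, -0.68] for Cav1 and -0.60 [-0.89, -0.32] and -0.95 [-1.20, -0.71] for Cavin1. Thinned to 500 UMIs, 34.5% of endothelial-like nuclei for WT, 20.4% for BMD and 26.2% for DMD had a Cav1 UMI (49.2%, 38.7% and 42.7% before thinning), against 0.386%, 0.125% and 0.54% of the cardiomyocyte-like nuclei. Median depths were 792, 1081 and 936 UMIs in the endothelial-like nuclei. Of 8 genes with at least 100 UMIs there, Cav1 and Cavin1 were the 2 at least 1.5-fold lower in BMD, against 6.84% of 7104 genes, and none was higher, against 4.14%. In DMD only Myof was higher, against 4.39%, and none was lower, against 3.35%.

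Dysf and Myof went opposite ways in endothelial-like nuclei. Dysf was at 965.1 CPM for WT, 753 for BMD and 720.3 for DMD, with log2 ratios of -0.36 [-0.47, -0.25] and -0.42 [-0.53, -0.31], short of 1.5-fold. Read apart, its DMD log2 ratio was just past 1.5-fold in the Btnl9-led cluster (-0.592 [-0.80, -0.39]) and short of it in the Unc5c-led one (-0.39 [-0.52, -0.26]). Myof was at 88.4, 126 and 172 CPM, with log2 ratios of 0.51 [0.18, 0.84] and 0.96 [0.66, 1.27]. Within the Unc5c-led cluster Myof was at 45.8, 60.8 and 174 CPM, with a DMD log2 ratio of 1.93 [1.40, 2.50], and within the Btnl9-led cluster at 141, 184 and 169 CPM, where both intervals held 0. In the endothelial-like sums 6 lymphatic markers stood at 117, 153 and 212 CPM in WT, BMD and DMD, rising like Myof, and 6 monocyte or neutrophil markers at 62.4, 65.1 and 245 CPM, with 1 marker of these at 0 UMIs in each library. Mitochondrial UMIs made up 1.88%, 2.02% and 2.82%. Fibroblast markers (9, at 534, 397 and 872 CPM) and macrophage markers (10, at 114, 109 and 135 CPM) were highest in DMD but lowest in BMD. Their part in the Myof values was not tested.

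**Figure D4:**
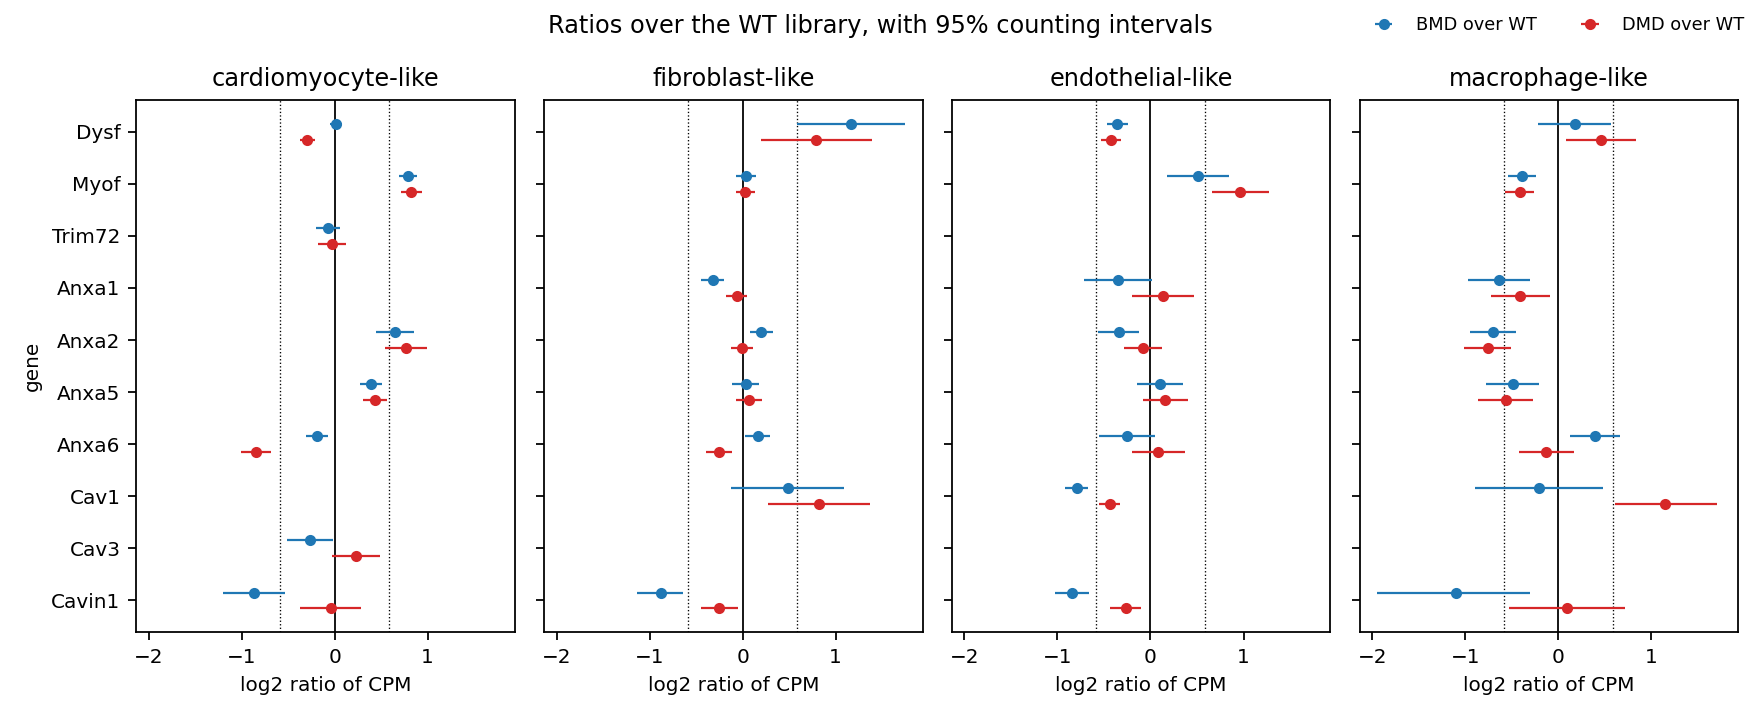
Points give the log2 ratio of CPM over WT (horizontal axis) of each gene with at least 100 UMIs in a class, for BMD and DMD, with 95% counting intervals; dotted lines mark 1.5-fold. In the class sums Myof and Anxa2 were higher in cardiomyocyte-like and lower in macrophage-like nuclei, and Cavin1 in BMD was lower in all 4 classes. The clusters within the classes are not shown apart, and free RNA is not subtracted.

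In fibroblast-like nuclei most of the repair genes were close to WT. The class held a cluster led by Abca8a, Rgs17 and Bmper, with 93.6% (WT), 61.1% (BMD) and 78.6% (DMD) of its nuclei, and one led by Ltbp2, Tnc and Ccn5, with 6.42%, 38.9% and 21.4%. Myof was at 374, 384 and 382 CPM in WT, BMD and DMD, with log2 ratios of 0.04 [-0.07, 0.14] and 0.03 [-0.07, 0.13]. Anxa1, known for its part in resolving inflammation, was at 324, 259 and 310.3 CPM. Cavin1 was at 116, 63.2 and 98.0 CPM, with a log2 ratio of -0.88 [-1.13, -0.64] in BMD and -0.25 [-0.45, -0.05] in DMD. Read apart, both clusters had the lower BMD level of Cavin1 (-1.01 [-1.34, -0.69] in the Abca8a-led and -0.89 [-1.38, -0.39] in the Ltbp2-led one), while Myof lay within 1.5-fold of WT in each. Of 8 genes tested, Dysf was the 1 at least 1.5-fold higher in BMD, against 5.59% of 9451 genes, and Cavin1 the 1 lower, against 9.45%. In DMD Cav1 and Dysf were higher, against 4.81%, and none was lower, against 4.63%. The Dysf levels behind this call were 9.29, 20.8 and 16.0 CPM, and the Cav1 levels 10.7, 15.03 and 18.9 CPM. Markers of distant classes stood in fibroblast-like nuclei at 5.81%, 6.64% and 8.31% of their free RNA level in WT, BMD and DMD, and Dysf at 4.40%, 6.51% and 7.39% of its own, so these Dysf levels did not exceed the free RNA background. Cav1 stood at 7.32%, 12.2% and 8.41% of its own, and its DMD log2 ratio over WT turned to -1.31 once free RNA was subtracted, with DMD at the floor of 3 UMIs used in ratios.

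In macrophage-like nuclei taken as 1 class, Anxa1, Anxa2, Anxa5 and Myof were lower in both dystrophic libraries and Anxa6 was not. Anxa2 was measured at 322 CPM for WT, 197 for BMD and 190.0 for DMD, with log2 ratios of -0.70 [-0.96, -0.46] and -0.76 [-1.01, -0.51]. Anxa5 was at 219, 156 and 148 CPM and Myof at 720.4, 549 and 539.6 CPM, none of which reached 1.5-fold, with WT above both other libraries for both genes. Anxa6 was at 180.1, 237 and 164 CPM, higher in BMD by a log2 ratio of 0.40 [0.13, 0.67] and with an interval that held 0 in DMD (-0.13 [-0.43, 0.17]). At the finer clustering a cluster led by F13a1, Cd163 and Mrc1 held 48.7% (WT), 76.6% (BMD) and 67.2% (DMD) of the class, and one led by Spp1, Edil3 and Lilrb4 held 40.8%, 16.5% and 23.7%. Myof was at 1313 CPM in the Spp1-led and 440 CPM in the F13a1-led nuclei of WT, and its log2 ratios within either cluster had intervals that held 0. The Anxa2 log2 ratios within the clusters were -0.43 and -0.49 in BMD and -0.39 and -0.42 in DMD, all with intervals below 0 and all short of 1.5-fold. Anxa5 was lower only in DMD in the Spp1-led cluster (-1.31 [-1.93, -0.725]), and Anxa1 only in BMD in the F13a1-led cluster (-0.70 [-1.19, -0.22]). All other intervals of Anxa5 and Anxa1 within the clusters held 0. Anxa6 in BMD was past 1.5-fold higher in the F13a1-led cluster (0.596 [0.23, 0.97]). Mitochondrial UMIs made up 4.90% (WT), 3.46% (BMD) and 3.46% (DMD) of the class sums, and without nuclei over 5% mitochondrial UMIs Anxa1 in BMD (-0.50) and Anxa2 in DMD (-0.56) fell short of 1.5-fold. Of 8 genes tested, Anxa1, Anxa2 and Cavin1 were at least 1.5-fold lower in BMD, 3 against 9.62% of 6313 genes, and none was higher, against 5.27%. In DMD Anxa2 was lower, against 7.84%, and Cav1 higher, against 8.09%. Scrublet marked 17.2% of these nuclei as doublets for WT, 12.0% for BMD and 26.3% for DMD, and markers of distant classes stood at 27.0%, 27.6% and 36.5% of their free RNA level. Cav1 in DMD, 82.3 CPM, was at 36.5% of its own free RNA level, no more than those markers. Cav1 and Cavin1 in these nuclei had at most 3 UMIs left in WT, BMD and DMD once free RNA was subtracted, so no ratio was left to give for either, and Anxa1 in BMD then fell short of 1.5-fold (log2 ratio -0.41).

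Cavin1 as counted was lowest in BMD in each of the 5 largest named classes, of which the macrophage-like class was at its free RNA background. In pericyte-like nuclei, which also raised smooth muscle markers, it was at 87.9, 56.0 and 81.4 CPM, with an interval that reached 0 (log2 ratio -0.65 [-1.34, 0.01]), and the ratio fell short of 1.5-fold with all barcodes of at least 500 UMIs (-0.51) and in the aggregate counts (-0.42). The Cavin1 level in free RNA was also lowest in BMD (104 CPM), against 148 CPM (WT) and 217 CPM (DMD). The sum of 81 ribosomal protein genes also was lowest in BMD in these 5 classes. It was 1721, 1368 and 1407 CPM in cardiomyocyte-like, 6311, 3460 and 4754 CPM in fibroblast-like, and 6040, 3757 and 5888 CPM in endothelial-like nuclei of WT, BMD and DMD. In cardiomyocyte-like nuclei the ribosomal sums of BMD and DMD were close to each other. Cavin1 in DMD was close to WT in that class as a whole and lower than WT in its Xirp2-led cluster (-0.80 [-1.27, -0.33]). The part of the ribosomal difference in the Cavin1 values was not tested. Of the list of further genes, those with 100 UMIs had a median log2 ratio of BMD over WT of -0.06 in cardiomyocyte-like (36 genes), -0.29 in fibroblast-like (34), -0.28 in endothelial-like (36), -0.33 in macrophage-like (28) and -0.47 in pericyte-like nuclei (18), where the medians of all genes were -0.06, -0.05, -0.04, 0.01 and -0.02.

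**Figure D5:**
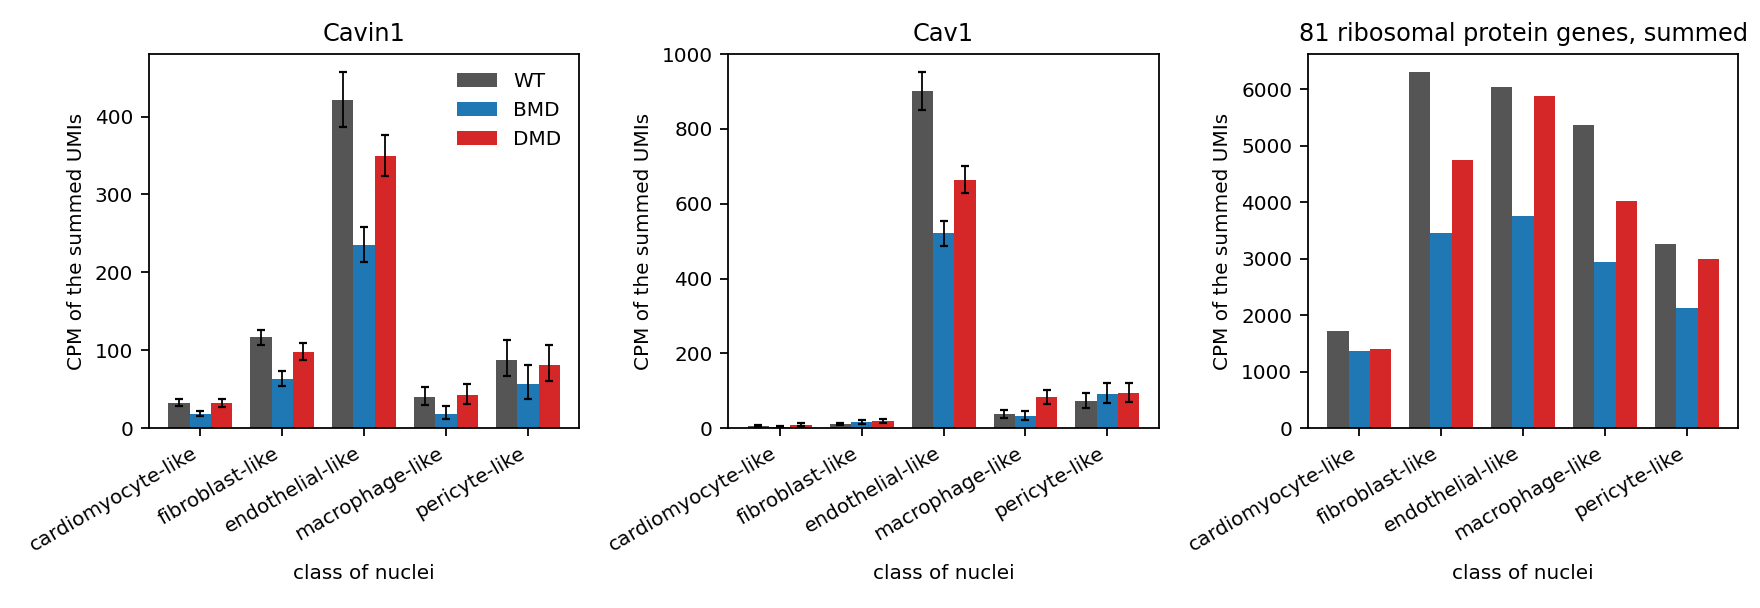
Bars give the CPM (vertical axes, from 0) of Cavin1, Cav1 and 81 summed ribosomal protein genes in 5 classes (horizontal axis) of the 3 libraries, with 95% Poisson intervals for Cavin1 and Cav1. Both Cavin1 and the ribosomal sum were lowest in BMD in every class shown.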

How the data were processed

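Nuclei of heart apexes were sorted on DAPI and taken through the 10x Genomics 3′ v3.1 kit per the labels and methods, although a 5′ kit is named elsewhere in the study. The authors deposited raw UMI counts per gene and barcode, made with Cell Ranger on rn6 per the submitters' processing notes. The count file listed for WT is an aggregate of 3 libraries (header version 6.0.1), while the BMD and DMD headers give version 4. WT was read from the barcodes whose suffix matched neither of the other 2 files, and BMD and DMD from their own files. In the aggregate, BMD and DMD kept 76.1% and 92.9% of their UMIs. Whether introns were counted is not given in the sources used here.

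Barcodes were ranked by UMIs, and as many as the study kept per library were used as nuclei; the shallowest had 513 (WT), 525 (BMD) and 546 UMIs (DMD). Library totals were 21609238, 21142346 and 19215994 UMIs. Counts were log-normalised and clustered with scanpy 1.11.5 (2000 variable genes, 30 principal components, 15 neighbours, Leiden resolution 0.5) without the 10 genes and the list of further genes. A cluster was named from at least 3 raised markers, and 4 clusters stayed unnamed. Clusters of at least 500 nuclei within a class were also read apart, at resolution 1.0 for cardiomyocyte-like and macrophage-like nuclei. No doublet filter was applied. Scrublet marked 8.01%, 5.10% and 10.4% of nuclei.

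UMIs were summed per class and library and given as CPM; a floor of 3 counts stood in for 0 in ratios. A gene was compared when it had at least 100 UMIs over the 3 libraries in the class, and was called past 1.5-fold without a test. Free RNA in a class was estimated from markers of distant classes. The fold rule was checked on simulated data. All 10 genes are named, with those of the list of further genes past 1.5-fold the same way in both comparisons. The genes most like each were sought for all 10, and are named for Trim72, Cav1 and Dysf only. The 10 genes and the lists were chosen with earlier results of these data known. The WT counts and the others may have been made with different Cell Ranger versions, which cannot be told apart from genotype.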

Additional observations from a re-analysis of the deposited data

Results flagged for a closer look

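Anxa2 lay past 1.5-fold in opposite directions in 2 classes in both comparisons. In BMD its log2 ratio over WT was 0.65 in cardiomyocyte-like and -0.70 in macrophage-like nuclei, and in DMD it was 0.77 and -0.76. The difference between the classes was not tested, since each genotype has 1 library, and both comparisons use the same WT library. In WT, Anxa2 stood at 50.7 CPM in cardiomyocyte-like and 322 CPM in macrophage-like nuclei, so the ratio between the classes was smaller in BMD (79.3 and 197 CPM) and in DMD (86.2 and 190.0 CPM). In macrophage-like nuclei the DMD ratio fell short of 1.5-fold without nuclei over 5% mitochondrial UMIs (-0.56) and at Leiden resolution 1.0 (-0.58), and the BMD ratio did with barcodes of at least 1000 UMIs (-0.54). With the clusters of each class read apart, Anxa2 was past 1.5-fold only in DMD in the Dhrs7c-led cardiomyocyte-like cluster (0.996). It was at 0.05 (BMD) and 0.16 (DMD) in the Xirp2-led cardiomyocyte-like cluster and between -0.49 and -0.39 in the macrophage-like clusters.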

How the results depend on the processing

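No paired analysis was possible because each genotype has 1 library, and for the same reason no replicate could be left out. The median log2 ratios in cardiomyocyte-like nuclei stayed within their counting intervals, and the counts of genes past 1.5-fold within 1.5 times, under all alternatives run on a whole class or on all nuclei except the following, both for DMD over WT. With the 10 genes kept in the clustering, Anxa1 and Cav1 reached 100 UMIs and 5 of 10 genes passed. The small Gadd45g-led cluster of the class then held 61 (WT), 116 (BMD) and 238 (DMD) nuclei, against 58, 113 and 69 in the main clustering. It raised 2 monocyte or neutrophil markers and had Mt-co1 among its 10 leading genes. The part of these added DMD nuclei in the calls was not tested. Over all nuclei in place of 1 class, 0 of 10 passed. For BMD over all nuclei the genes past 1.5-fold changed, as Myof (0.18) and Anxa2 (-0.04) fell short and Anxa1 (-0.635) passed. Among 890 single values of the 10 genes under 12 alternatives, 849 moved by no more than their counting interval, 39 moved further and 2 changed direction. These 2 were Anxa2 in BMD over all nuclei (-0.036) and Cav1 in DMD in fibroblast-like nuclei after free RNA was subtracted (-1.31). After that subtraction, levels under the floor of 3 counts were set to it, a choice made after the values were seen, and no ratio was given where both libraries lay at or under it. This removed 6 ratios, of Dysf in fibroblast-like and of Cav1 and Cavin1 in macrophage-like nuclei, 4 of them past 1.5-fold before the subtraction. Of 211 values of the results past 1.5-fold, 196 stayed past it the same way. The mean over nuclei brought Anxa2 in BMD to 0.58 in cardiomyocyte-like nuclei, just short of 1.5-fold. Clusters of at least 500 nuclei read apart, chosen after seeing the data, changed more: of 36 values of results past 1.5-fold, 22 stayed past it, and Anxa2 in BMD turned to -0.12 in the Dhrs7c-led cardiomyocyte-like cluster. For BMD, 0 of 8 genes passed in the Dhrs7c-led cluster (median -0.13) and 1 in the Xirp2-led one (median -0.22). For DMD, the genes past 1.5-fold in the Xirp2-led cluster were Dysf, Anxa6 and Cavin1, all lower. In the Dhrs7c-led cluster they were Myof, Anxa2 and Cavin1, all higher, and Anxa6, which was lower. The Cavin1 interval there held 0. In macrophage-like nuclei Anxa1 in BMD fell short without nuclei over 5% mitochondrial UMIs (-0.50) and at resolution 1.0 (-0.56). Leaving out the small cardiomyocyte-like cluster, an alternative chosen after seeing the data, kept the same genes past 1.5-fold in both comparisons. The class with the highest level was the same in 28 of 30 gene and library pairs at Leiden resolution 1.0 and in 29 after free RNA was subtracted. Levels under about 10 UMIs in the small classes are limited by depth.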
